A study of Mus musculus with 405 samples.

Results

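Camptothecin and irinotecan are inhibitors of topoisomerase 1 that were each applied to 1 culture in a chemical screen of mouse cortical neurons. They were taken by sample title, 1 library each, which makes 2 of the 405 samples of the series. They were set beside the 49 vehicle libraries of the same table of expression values, and 32 libraries of topotecan served as the reference profile of the same drug family.

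The cultures were made from cortex of mouse embryos from C57BL/6J dams and CAST/EiJ sires, dated embryonic day 15 by the labels, where the study's methods give an earlier day. All groups, vehicle included, received an antimitotic, 5-fluoro-2′-deoxyuridine with uridine triphosphate, before exposure. At day 7 in vitro they were exposed for 24 h to camptothecin at 0.3 µM, irinotecan at 10 µM, topotecan at 0.3 µM or the DMSO vehicle alone, and polyadenylated RNA was sequenced. Each drug therefore had 1 library and no replicate of its own, the depth of the libraries is unknown, and nothing in the labels says that the vehicle or topotecan libraries came from separate litters. The cultures are mixed: all 12 neuron markers sought were in the table, with 8 of 10 astrocyte markers and 6 of 12 microglia markers, but the deposited values give deviations and no levels, so that the makeup could not be weighed.

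Topoisomerase 1 relaxes the supercoils that build up around a moving RNA polymerase by cutting and resealing 1 strand of the DNA. Camptothecin, a plant alkaloid, holds the enzyme on the cut strand. Topotecan is camptothecin carrying a hydroxyl and a dimethylaminomethyl group, and irinotecan is a prodrug that carries an ethyl group and a bipiperidine carbamate, which carboxylesterases remove to release the active form. In neurons, inhibitors of this enzyme are known for lowering the expression of very long genes, many of which encode synaptic proteins.

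Values below are differences on the log2 scale from the mean of the 49 vehicle libraries, so that a difference of −1 corresponds to 50% of the vehicle level. The standard errors (SE) of the drug values come from limma's linear model over the 4 groups, in which a single library was taken to vary around its group as the vehicle and topotecan libraries do. A gene was called when its p-value, adjusted by the Benjamini-Hochberg method over all 13304 genes, was below 0.05. As a description, the genes whose value lay below the lowest or above the highest of the 49 vehicle libraries were counted too.

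One vehicle library stood apart with respect to irinotecan. Across the 13304 genes, its values ran opposite to those of the irinotecan library, with a Pearson r of −0.904, while the next most opposed vehicle library gave −0.202. Among the 77028 pairs of libraries in the table, 2 had an r under −0.6, and the lowest r of camptothecin with any library was −0.261. The opposed vehicle library was higher where irinotecan was lower: over the 74 genes longer than 800 kb its median was 0.55, above the other 48 vehicle libraries, whose highest median was 0.28. The authors removed batch effects before deposit, and the labels do not say which libraries shared a batch, so the part of that step in this mirror image was not tested. Set against this library alone, irinotecan had a median of −1.44 over the genes longer than 800 kb, beside −0.92 against the mean of all 49. Whether the deposited values understate or overstate irinotecan's differences cannot be told from them, and leaving the library out does not settle it. Counts and calls for irinotecan are given also without this library.

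Relative to vehicle, 682 genes fell and 239 rose in camptothecin, which are 5.13% and 1.8% of the genes tested. Most genes that fell were long. Of the 682, 548 exceeded 100 kb and 110 did not, while 24 had no length in the annotation used, and their median length was 266.0 kb. Most genes that rose were short, with a median length of 19.4 kb and 12 of 239 above 100 kb. Among all 1997 genes over 100 kb, 27.4% fell, against 0.996% of the 11042 genes of at most 100 kb. The median fall among genes called lower was −0.90 and the median rise among genes called higher was 0.75.

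Irinotecan gave few calls. The limma fit over 4 groups, whose spread includes the topotecan libraries, called 3 genes lower, 0.0225% of those tested, and 0 higher (0.0%). At an unadjusted p under 0.05, 393 genes were lower and 137 higher, together 3.98% of those tested. Without the opposed vehicle library 7 genes were called lower and 0 higher. With the spread taken from the vehicle libraries alone, 78 genes were called lower and 0 higher. Of these 78, 74 were longer than 100 kb, 2 were not and 2 had no length, and all 78 lay below each of the 49 vehicle libraries.

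Counted against the vehicle range, camptothecin lay below every vehicle library at 1150 genes (8.64%) and above every one at 799 (6.01%). Irinotecan lay below every vehicle library at 406 genes (3.05%) and above every one at 135 (1.01%). Both counts were the same without the opposed library, but leaving out a library cannot lower such counts. At 90 of the 406 genes (22.2%) the opposed library was the highest vehicle library. Of the 406 genes, 337 were longer than 100 kb, 16.9% of the genes of that length, and 64 were not, 0.58% of theirs. Of the 135 genes above the range, 5 were longer than 100 kb.

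The difference from vehicle deepened with gene length under both drugs. In camptothecin the median was 0.12 for genes of up to 5 kb, −0.044 between 50 and 100 kb, −0.22 between 100 and 200 kb, −0.58 between 200 and 400 kb, −1.11 between 400 and 800 kb and −1.67 for the 74 genes over 800 kb. The last value corresponds to 31.3% of the vehicle level. In irinotecan the medians of the same classes were 0.065, −0.023, −0.11, −0.26, −0.56 and −0.92, the last of which corresponds to 52.9% of the vehicle level. The medians of single vehicle libraries over genes longer than 800 kb ran from −0.27 to 0.55, so that both drugs lay outside them. Against the 48 vehicle libraries other than the opposed one, the medians over these genes were −1.66 in camptothecin and −0.91 in irinotecan.

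**Figure D1:**
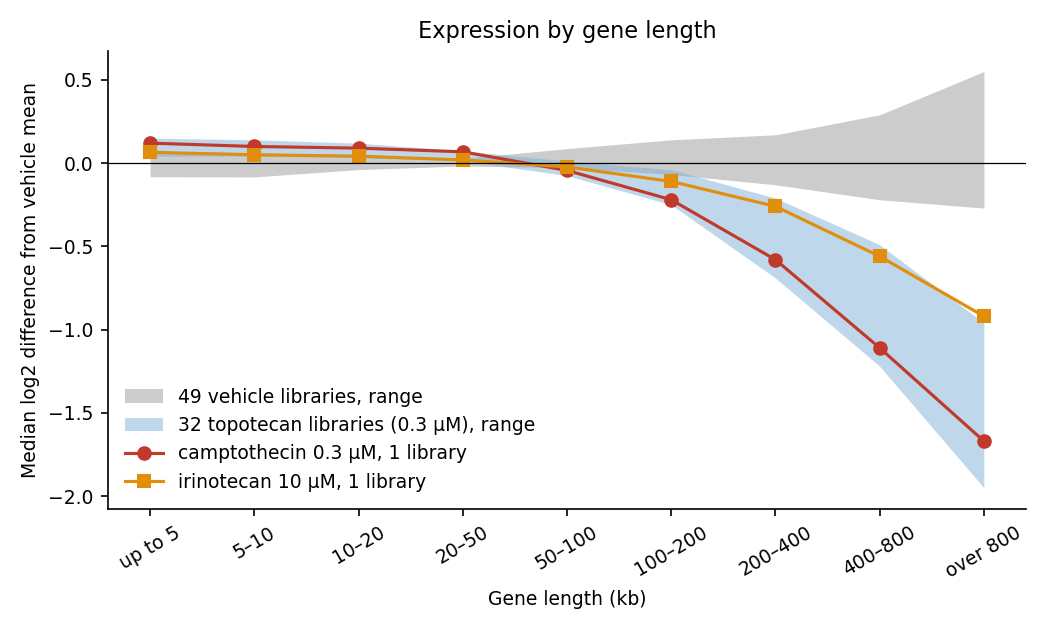
Median log2 difference from the vehicle mean (vertical axis) in 9 classes of gene length in kb (horizontal axis), for the single library of camptothecin (circles) and of irinotecan (squares). The grey and blue bands give the lowest and highest medians of the 49 vehicle and the 32 topotecan libraries. Both drugs leave the vehicle band downwards in the classes over 100 kb, and camptothecin also between 50 and 100 kb. In the classes up to 50 kb camptothecin lies above the vehicle band and irinotecan inside it. Camptothecin reaches −1.67 over 800 kb, inside the topotecan band.

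The share of genes outside the vehicle range followed the same order. In camptothecin 2.39% of the genes of up to 5 kb lay below every vehicle library, 50.4% of those between 200 and 400 kb, 74.4% of those between 400 and 800 kb and 85.1% of those over 800 kb. In irinotecan the shares in these classes were 0.378%, 21.5%, 47.5% and 68.9%. The share above every vehicle library was highest in camptothecin between 10 and 20 kb, at 8.07%, and was 0.0% in both drugs over 800 kb.

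**Figure D2:**
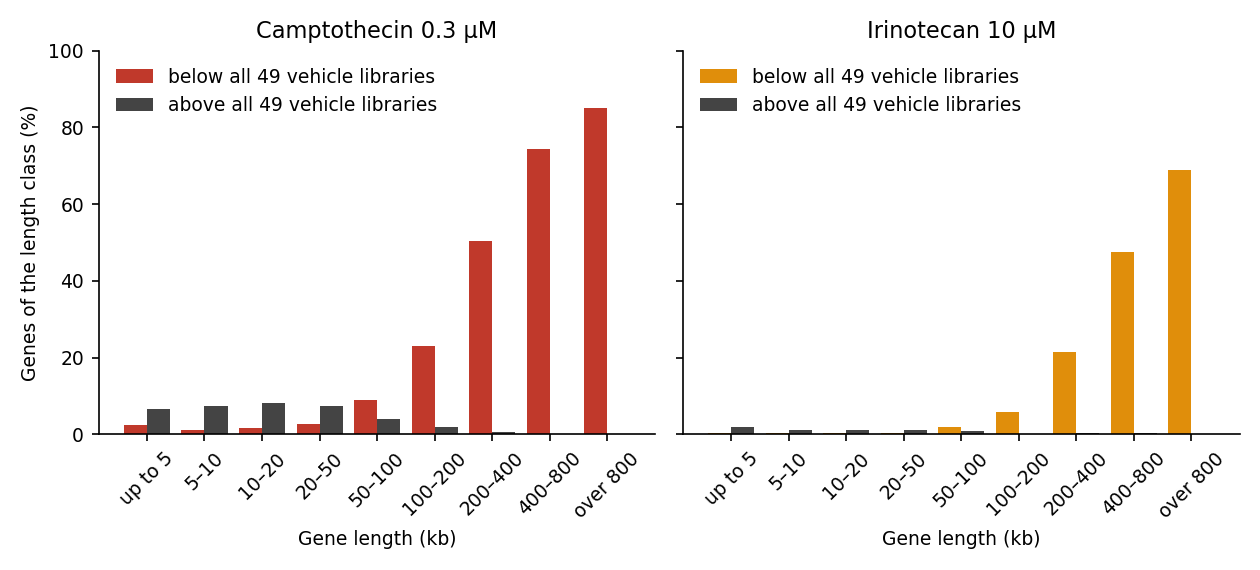
Percentage of the genes of each length class in kb (horizontal axis) that lay below (coloured bars) or above (dark bars) all 49 vehicle libraries, for camptothecin at 0.3 µM on the left and irinotecan at 10 µM on the right. The bars below the vehicle range grow with length to 85.1% and 68.9% of the genes over 800 kb.

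As a single value per library, the median over the 1997 genes longer than 100 kb was −0.38 in camptothecin and −0.18 in irinotecan, and lay between −0.10 and 0.16 in the vehicle libraries (SD 0.05, n = 49). Each drug was below all 49. A two-sided exact permutation test gave p = 0.04 for either drug against vehicle, the smallest p that 1 library against 49 can give, and 0.06 after adjustment over the 3 tests of this kind. The design could thus not pass a threshold of 0.05 after adjustment. Without the opposed vehicle library the differences were again −0.38 and −0.18.

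Several of the largest falls in camptothecin were at genes of cell adhesion. Cadm2, an immunoglobulin-type adhesion molecule of synapses, spans 965.5 kb on chromosome 16 (66655666 to 67621153, minus strand, mm9). It was at −4.29 in camptothecin, where the vehicle libraries ran from −0.51 through a median of −0.023 to 0.79 (SE 0.50, adjusted p = 7.55e-10). That corresponds to 5.12% of the vehicle level. In irinotecan Cadm2 was at −1.44, also below each vehicle library (SE 0.50, adjusted p = 0.539).

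Tenm1, a teneurin that binds latrophilins across the synapse, lies on chromosome X (39881043 to 40782303, minus strand). Its vehicle libraries ran from −0.83 to 1.09 with a median of 0.052, camptothecin was at −4.23 (SE 0.48, adjusted p = 5.04e-10) and irinotecan at −1.66 (adjusted p = 0.24). Ctnna2, a catenin that ties cadherins to actin, covers 1098 kb of chromosome 6 (76831631 to 77929693, minus strand). Camptothecin was at −3.98 there and irinotecan at −1.71, with vehicle libraries from −0.40 to 1.07. In both genes neither drug overlapped the vehicle libraries, and camptothecin alone was called in the fit over 4 groups.

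The other genes among the 10 largest falls in camptothecin were of like length, where a length was known. Nell1, a secreted glycoprotein, fell by 4.39 (SE 0.70) and gave the largest of these falls. Dcc, the receptor of the guidance cue netrin, was at −3.67, Lsamp, a lipid-anchored adhesion protein, at −3.66, Astn2, which acts in neuronal migration, at −3.55, and Cdh13, a cadherin held by a lipid anchor, at −3.44. Erbb4, the neuregulin receptor, was at −3.20 and the uncharacterized 1700010K23Rik, without a length here, at −3.54. The highest adjusted p among the 10 was that of Erbb4, 0.00144. All but Nell1 were also below every vehicle library in irinotecan, at values from −1.75 for Erbb4 to −1.11 for Cdh13, and none of them was called there.

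Of 43 measured genes of synaptic adhesion, 26 fell and 2 rose in camptothecin, and all 26 that fell exceeded 100 kb. Beside the 5.13% of all genes called lower, this is 60.5% of the list, whose median length was 649.0 kb. Of its 33 genes over 100 kb 78.8% fell, beside 27.4% of all genes of that length. Among all genes, 63.9% of those between 400 and 800 kb fell and 77.0% of those over 800 kb. The part of gene length in the list's share was not tested. The list's median was −1.17 in camptothecin and −0.73 in irinotecan, where the median of all genes was 0.023 and 0.0056. In irinotecan 24 of the 43 lay below every vehicle library, 55.8% beside 3.05% of all genes. All 24 exceeded 100 kb, 72.7% of the list's 33 genes of that length beside 16.9% of all such genes. The count, which leaving out a library cannot lower, was also 24 without the opposed vehicle library. The list's median in that library was 0.40, the highest of the 49.

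A presynaptic neurexin and a postsynaptic partner were among them. Nrxn3 was at −2.25 in camptothecin (SE 0.36, adjusted p = 3.02e-06) and at −1.61 in irinotecan (adjusted p = 0.0615), with vehicle libraries from −0.58 to 1.00. Nlgn1, a neuroligin that binds neurexins, was at −1.59 and −0.92 with vehicle libraries from −0.45 to 0.60. Both drugs lay below every vehicle library in both genes. Without the opposed library, irinotecan was called at Nrxn3 (−1.58, adjusted p = 0.0369).

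The 10 members of the adhesion list of at most 100 kb had medians of 0.051 in camptothecin and −0.015 in irinotecan. None of them fell. The 2 that rose in camptothecin were Cntn2, a contactin of axons, at 0.79, and Lrrtm1, a postsynaptic leucine-rich repeat protein, at 0.68. Cadherins and protocadherins, which hold cells together by binding their own kind, showed 13 falls and 1 rise (Pcdh8, 0.41) among 24 measured, 54.2% and 4.17% beside 5.13% and 1.8% of all genes, with a median of −0.72 in camptothecin and −0.13 in irinotecan. In that list 5 genes (20.8%, beside 3.05% of all genes) were below every vehicle library in irinotecan, Pcdh15 (−1.12), Cdh13 (−1.11), Pcdh11x (−0.89), Pcdh9 (−0.80) and Cdh8 (−0.72). These 5 exceeded 100 kb, 29.4% of the list's 17 genes of that length beside 16.9% of all such genes. In camptothecin 11 of the 13 falls exceeded 100 kb, 64.7% of the 17 beside 27.4% of all such genes.

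**Figure D3:**
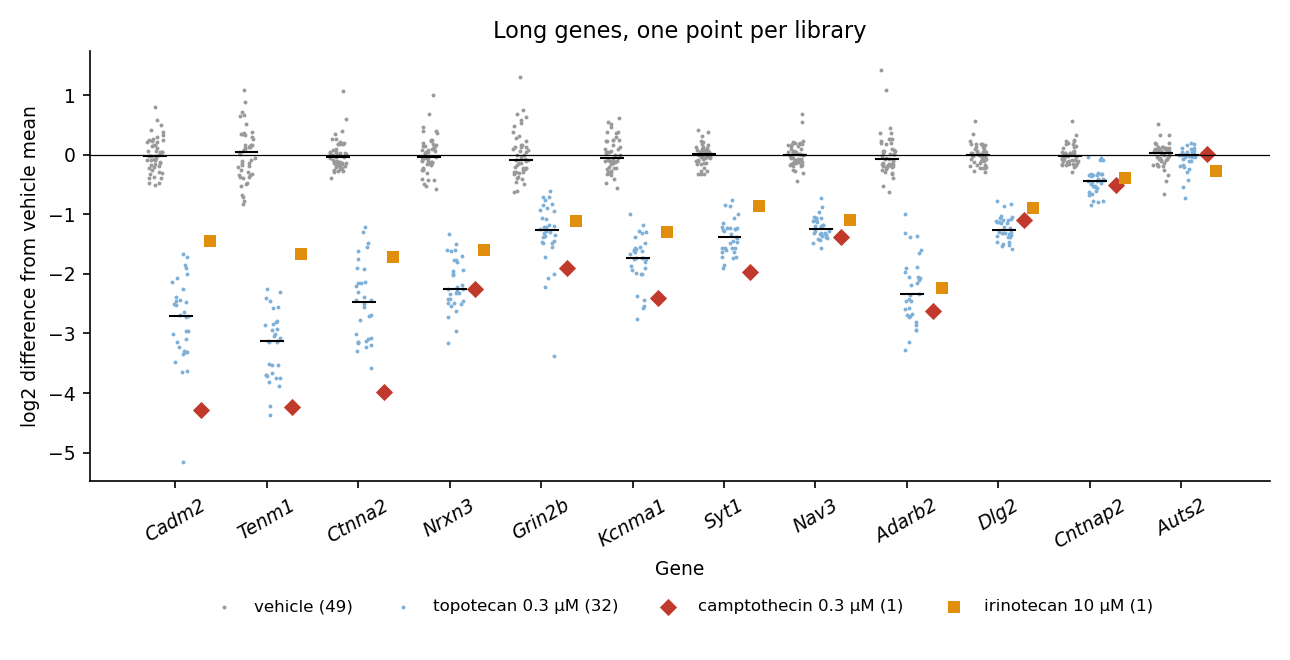
Log2 difference from the vehicle mean (vertical axis) of 12 long genes (horizontal axis), with 1 point for each library and black bars at the medians of the 49 vehicle and 32 topotecan libraries. Camptothecin (diamonds) and irinotecan (squares) lie below all vehicle points in the first 11 genes, and inside them at Auts2.

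Irinotecan was called at 3 genes, all of which exceeded 100 kb. Nav3, a neuron navigator of the cytoskeleton on chromosome 10 (109119716 to 109437275, minus strand), ran from −0.44 to 0.68 in vehicle with a median of −0.013. It was at −1.09 in irinotecan (SE 0.19, adjusted p = 0.00339) and at −1.38 in camptothecin (adjusted p = 1.99e-07). The opposed vehicle library was the highest of the vehicle libraries there, at 0.68.

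Adarb2, a member of the RNA-editing deaminase family, lies on chromosome 13 (8202112 to 8767993, plus strand). It was at −2.24 in irinotecan, 21.2% of the vehicle level (SE 0.44, adjusted p = 0.0178), and at −2.63 in camptothecin, with vehicle libraries from −0.63 to 1.42. Dlg2, a scaffold protein of the postsynaptic density on chromosome 7 (97650473 to 99595513, plus strand), was at −0.89 in irinotecan (SE 0.18, adjusted p = 0.0238) and at −1.10 in camptothecin, with vehicle libraries from −0.29 to 0.57. The highest vehicle value was that of the opposed library in both genes. The call of Dlg2 in irinotecan was lost with a variance trend (adjusted p = 0.0651) and with variably expressed genes alone (adjusted p = 0.0628). Without the opposed vehicle library the adjusted p of Nav3, Adarb2 and Dlg2 in irinotecan were 0.000687, 0.00633 and 0.00945. Opcml (−0.99) and Ptprd (−1.09), both neuronal adhesion proteins, were then called beside Nrxn3.

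Glutamate receptors carry most fast excitation in cortex. Of 23 of their genes 12 fell and 0 rose in camptothecin, 52.2% beside 5.13% of all genes, with a median of −0.97. In irinotecan 7 lay below every vehicle library, 30.4% beside 3.05% of all genes, with a list median of −0.46. All 7 exceeded 100 kb, 38.9% of the list's 18 genes of that length beside 16.9% of all such genes. Of the 12 that fell in camptothecin, 11 exceeded 100 kb, 61.1% of the 18 beside 27.4% of all such genes. The kainate receptor subunit Grik2 was at −2.30 and the metabotropic receptor Grm7 at −1.95 in camptothecin. The NMDA receptor subunit Grin2b, which dominates in young neurons, was at −1.91 in camptothecin (SE 0.45, adjusted p = 0.00223) and at −1.11 in irinotecan (adjusted p = 0.772), with vehicle libraries from −0.63 to 1.30. Its obligatory partner Grin1, of 28.01 kb, was at −0.23 and −0.10 and was not called.

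Of 12 genes of GABA-A receptor subunits 6 fell and 0 rose in camptothecin, beside 5.13% of all genes called lower. All 6 exceeded 100 kb, 85.7% of the list's 7 genes of that length beside 27.4% of all such genes. In irinotecan 1 of the 12 lay below every vehicle library, 8.33% beside 3.05% of all genes. The list's median was −0.43 in camptothecin and −0.15 in irinotecan. Gabrg3 gave the lowest value of the list in camptothecin, at −2.08 (SE 0.59, adjusted p = 0.0166), with vehicle libraries from −1.29 to 1.37, and was at −0.59 in irinotecan, within them.

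Among 40 genes of voltage-gated channels and their partners 17 fell and 0 rose in camptothecin (42.5%), and 20 lay below every vehicle library in irinotecan (beside 3.05% of all genes), with list medians of −0.58 and −0.44. Of the 17, 16 exceeded 100 kb, 59.3% of the list's 27 genes of that length beside 27.4% of all such genes. In irinotecan 16 of the 20 exceeded 100 kb, also 59.3% of the 27, beside 16.9% of all such genes. The potassium channel gene Kcnma1 was at −2.41 and −1.30 in camptothecin and irinotecan, with vehicle libraries from −0.55 to 0.61. Kcnip4, a partner of potassium channels, was at −2.83 and −1.35, and the calcium channel subunit Cacna2d3 at −1.75 and −1.53. Of the 20 genes in irinotecan 4 did not exceed 100 kb, among them the sodium channel Scn8a (−0.49) and the potassium channels Kcna1 (−0.53) and Kcnc1 (−0.29).

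Genes of the synaptic vesicle cycle gave 6 falls and 0 rises among 25 in camptothecin, beside 5.13% of all genes called lower. In irinotecan 7 lay below every vehicle library, beside 3.05% of all genes. Of the 6 falls, 5 exceeded 100 kb, 62.5% of the list's 8 genes of that length beside 27.4% of all such genes. Of its 17 genes of at most 100 kb 1 fell, 5.88% beside 0.996% of all such genes. In irinotecan 5 of the 7 exceeded 100 kb, also 62.5% of the 8, beside 16.9% of all such genes. The other 2 were 11.8% of the 17, beside 0.58% of all such genes. Syt1, the calcium sensor of release, ran from −0.33 to 0.41 in vehicle and was at −1.96 in camptothecin (SE 0.22, adjusted p = 5.04e-10) and −0.85 in irinotecan (adjusted p = 0.172). The active zone genes Erc2 and Rims1 were at −2.36 and −2.05 in camptothecin and at −0.93 and −0.89 in irinotecan. The vesicle proteins Syp (−0.10) and Vamp2 (−0.092), of 14.79 and 3.895 kb, were not called in camptothecin.

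Some genes longer than 800 kb lay within the vehicle libraries. Auts2, Pde4d, Camta1 and Arfip1 were picked out after their values were seen. Auts2, a regulator of transcription in neurons with 1106 kb on chromosome 5 (131913205 to 133019214, minus strand), was at 0.012 in camptothecin and −0.27 in irinotecan, both within the vehicle libraries, which ran from −0.66 to 0.51. Pde4d, a phosphodiesterase, was at −0.15 and −0.13, and Camta1, a transcription factor, at −0.12 and −0.087. Cntnap2, a neurexin relative and with 2241 kb among the longest genes, was at −0.51 in camptothecin (adjusted p = 0.0766) and −0.39 in irinotecan. Both values lay below every vehicle library, the lowest of which was at −0.29, and neither was called. The gene over 800 kb with the highest value in camptothecin was Arfip1 (0.48, adjusted p = 0.253), with a length of 1391 kb in the annotation used.

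Of the 12 genes over 100 kb that rose in camptothecin, Rbm20, a splicing factor of 189.8 kb, was at 1.46 (adjusted p = 0.00935) and Rps6ka6, a protein kinase of 149.8 kb, at 1.25 (adjusted p = 0.000372). Irinotecan was at 0.061 and 0.33 there, within the vehicle libraries. These 2 genes were picked out after their values were seen. Among the 827 genes over 200 kb, 1 rose in camptothecin. Btbd3, a BTB-domain protein that orients dendrites, lies on chromosome 2 (138082301 to 138415028, plus strand). It ran from −0.35 to 0.60 in vehicle, with a median of −0.016, and was at 0.75 in camptothecin (SE 0.15, adjusted p = 0.000172) and at 0.028 in irinotecan. Also 1 gene over 200 kb, Prune2, lay above every vehicle library in both drugs, at 0.65 and 0.40, and was not called in either.

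The largest rise in camptothecin was that of Spag5. It encodes a protein of the mitotic spindle and lies on chromosome 11 (78115031 to 78135959, plus strand), with a length of 20.93 kb. Its values ran from −1.97 to 1.20 in vehicle, and it was at 2.85 in camptothecin, 7.21 times the vehicle level (SE 0.63, adjusted p = 0.0009), and at 0.055 in irinotecan. Htr6, a serotonin receptor, was at 2.24 and −0.02, with vehicle libraries from −1.46 to 1.62. Camptothecin lay above every vehicle library at both genes and irinotecan within them.

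The remaining genes among the 10 largest rises included Thbs3, a thrombospondin of the extracellular matrix (1.93), Snhg3, a host gene of small nucleolar RNAs (1.96), and Mtmr11, a myotubularin relative (1.86). The other 5, among them C630043F03Rik (2.13, adjusted p = 3.53e-05), are uncharacterized transcripts named by their clone. Irinotecan was within the vehicle libraries at all 10 of these genes, at values from −0.28 for Snhg3 to 0.89 for C730002L08Rik.

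None of the 6 topoisomerase genes was called in either drug. Top1, which encodes the enzyme, spans 76.88 kb of chromosome 2 (160471624 to 160548500, plus strand). It ran from −0.24 to 0.32 in vehicle, with a median of −0.0051, and was at 0.31 in camptothecin (SE 0.13, adjusted p = 0.154) and −0.02 in irinotecan, both inside that range. Top2b, the form of topoisomerase 2 found in neurons, was at −0.14 and −0.20. Top2a, the form of dividing cells, was at −0.67 in camptothecin (SE 0.52, adjusted p = 0.592) and −0.21 in irinotecan, with vehicle libraries from −1.79 to 1.22. Top3b was at −0.32 and −0.049.

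Of 16 genes that repair breaks left by trapped topoisomerase 1, 1 rose in camptothecin and 0 fell, against 1.8% of all genes called higher. The gene was Ercc4, part of a nuclease that trims damaged ends, at 0.76 (SE 0.22, adjusted p = 0.0213), with vehicle libraries from −0.58 to 0.32. Tdp1, which removes the enzyme from DNA ends, was at −0.031 in camptothecin and −0.35 in irinotecan, and was not called. None of 17 genes of DNA damage signalling was called. Xrcc5, which binds double-strand ends, lay above every vehicle library in irinotecan, at 1.26, 5.88% of the list beside 1.01% of all genes. The opposed vehicle library was at −0.89 there, and the lowest vehicle library at −1.52.

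Targets of p53 gave 1 rise and 0 falls among 29 measured in camptothecin, 3.45% beside 1.8% of all genes called higher, with list medians of 0.14 and 0.15 in camptothecin and irinotecan and vehicle libraries from −0.35 to 0.18. Perp, a p53 target of cell junctions, was at 1.08 in camptothecin (SE 0.35, adjusted p = 0.0438), above the vehicle libraries, which reached 0.58, and at 0.41 in irinotecan. Its call was lost when only variably expressed genes were tested (adjusted p = 0.0709). Cdkn1a, the p53-driven inhibitor of cell division, was at 0.23 in both drugs with vehicle libraries from −0.34 to 0.31. Mdm2, the ligase that degrades p53, was at 0.0029 and 0.17. In irinotecan Gadd45a (1.17) and Pmaip1 (0.53), which act in arrest and cell death, lay above every vehicle library and were not called. They are 6.9% of the list, beside 1.01% of all genes. The opposed vehicle library was at −0.90 and −0.47 there, and was the lowest vehicle library at Pmaip1.

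Immediate early genes are transcribed within minutes of neuronal activity. Of 28 of them 2 fell and 0 rose in camptothecin, 7.14% beside 5.13% of all genes: Nr4a3, a nuclear receptor, at −1.38 (SE 0.36, adjusted p = 0.00672), and Homer1, a postsynaptic scaffold, at −0.55. The list's median was −0.42 in camptothecin, inside the range of −0.46 to 0.73 of the vehicle libraries, and 0.011 in irinotecan. Fos, the best known of them, varied from −1.76 to 2.48 among vehicle libraries and was at −0.91 and 0.11. Npas4, an activity-dependent transcription factor, was at −1.59 in camptothecin, below the lowest vehicle library at −1.50, and was not called (adjusted p = 0.236).

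Secreted factors that depend on activity gave a median of −0.77 over 15 genes in camptothecin, below all 49 vehicle libraries, which ran from −0.46 to 1.22, and of −0.10 in irinotecan, within them. Of these genes 2 fell, 13.3% beside 5.13% of all genes, and the longest of the 15 is Bdnf with 52.35 kb. Cartpt, a peptide precursor of 2.2 kb on chromosome 13 (100668439 to 100670638, minus strand), ran from −1.35 to 2.11 in vehicle and was at −3.04 in camptothecin (SE 0.85, adjusted p = 0.0132) and −0.16 in irinotecan. Sst, which encodes somatostatin, was at −1.10 (SE 0.27, adjusted p = 0.00397) and 0.12, with vehicle libraries from −0.67 to 0.47. Bdnf, the neurotrophin, was at −1.29 in camptothecin (adjusted p = 0.0863) and −0.10 in irinotecan. In RNA from whole cultures, fewer cells of a type and less RNA per cell cannot be told apart.

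**Figure D4:**
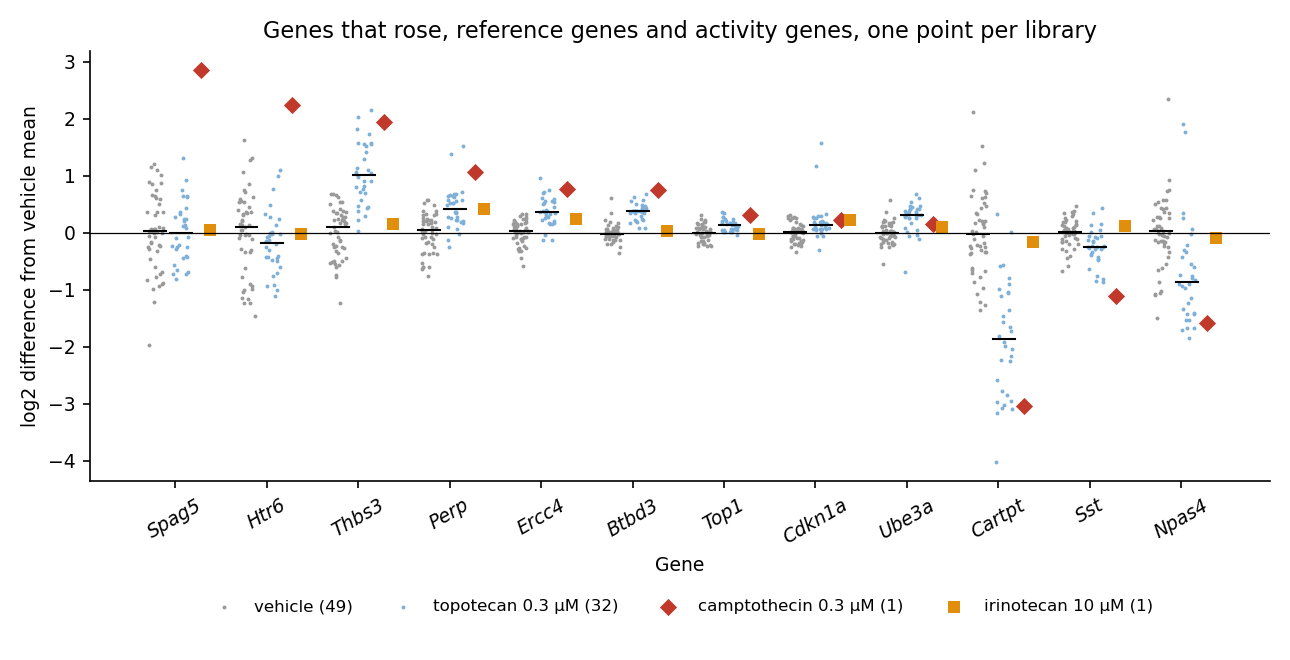
Log2 difference from the vehicle mean (vertical axis) of 12 further genes (horizontal axis), with 1 point for each library and black bars at the medians of the 49 vehicle and 32 topotecan libraries. Camptothecin (diamonds) stands above the vehicle points from Spag5 to Btbd3 and below them at Cartpt, Sst and Npas4, while irinotecan (squares) lies among the vehicle points in all 12 genes.

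The imprinted region around Ube3a on chromosome 7 was examined because topoisomerase inhibitors are known to unsilence its paternal copy in neurons. Total Ube3a, a ubiquitin ligase, was at 0.15 in camptothecin (SE 0.22, adjusted p = 0.82) and 0.10 in irinotecan, with vehicle libraries from −0.54 to 0.58, and these values do not separate the parental copies. Of 10 genes of the region 3 fell in camptothecin, beside 5.13% of all genes. Herc2, a large ubiquitin ligase, was at −0.91 (SE 0.18, adjusted p = 0.000164), Snrpn at −0.60 and Snurf at −0.55. Herc2 and Snrpn, of 181.6 and 157.7 kb, were 2 of the list's 4 genes over 100 kb, beside 27.4% of all such genes. None of the list's 5 genes of at most 100 kb fell, and Snurf had no length in the annotation used. The part of gene length in these falls was not tested. Snrpn and Snurf are read from 1 transcript and could share reads, so they are not 2 independent observations. In irinotecan Herc2 was below every vehicle library, at −0.57, and was not called (adjusted p = 0.377).

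Lists that stand for general stress or the culture's makeup gave few calls, with single genes per list beside 5.13% of all genes called lower and 1.8% called higher. In camptothecin 1 of 19 elongation factors rose, Polr2a, the largest subunit of RNA polymerase II, at 0.59 (adjusted p = 0.0363). Of 11 interferon-stimulated genes 1 rose, Ifit2 at 1.25, and of 17 genes of the ATF4 response 1 fell, Atf4 itself at −0.61. None of 34 ribosomal protein genes was called, although their median of 0.27 exceeded all 49 vehicle libraries. Their median length was 3.31 kb. Over all genes of up to 5 kb the camptothecin median was 0.12, also above the vehicle libraries, which ran from −0.082 to 0.072. Of 36 respiratory chain genes 1 fell, Cox7a2 at −0.94. In irinotecan the medians of these 5 lists lay within the vehicle libraries, between −0.021 and 0.21, and none of their genes was called.

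Among cell type markers, 2 of 12 neuron markers fell in camptothecin, Syt1 and Rbfox3 (−0.91), which exceed 100 kb, 16.7% beside 5.13% of all genes. In irinotecan 3 of the 12 lay below every vehicle library, beside 3.05% of all genes: Syt1, Rbfox3 (−0.73) and Map2 (−0.17), which also exceed 100 kb. In camptothecin the list's median was −0.27, below all vehicle libraries. It was −0.13 over the 8 neuron markers of at most 100 kb, where 4 vehicle libraries were lower. Of 8 astrocyte markers the glutamate transporters Slc1a3 (−0.98) and Slc1a2 (−0.84) fell, beside the same 5.13%, and the list's median was −0.0071. Microglia markers gave 0 calls of 6 and a median of −0.053, vascular and mesenchymal markers 0 of 8 and −0.46, and dividing cell markers 0 of 9 and −0.59, all within the vehicle libraries. Of 7 oligodendrocyte lineage markers 1 rose, Cnp at 1.38, 14.3% beside 1.8% of all genes. In irinotecan the 6 medians lay between −0.086 and 0.14, within the vehicle libraries. The part of these markers in the other differences was not tested.

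**Figure D5:**
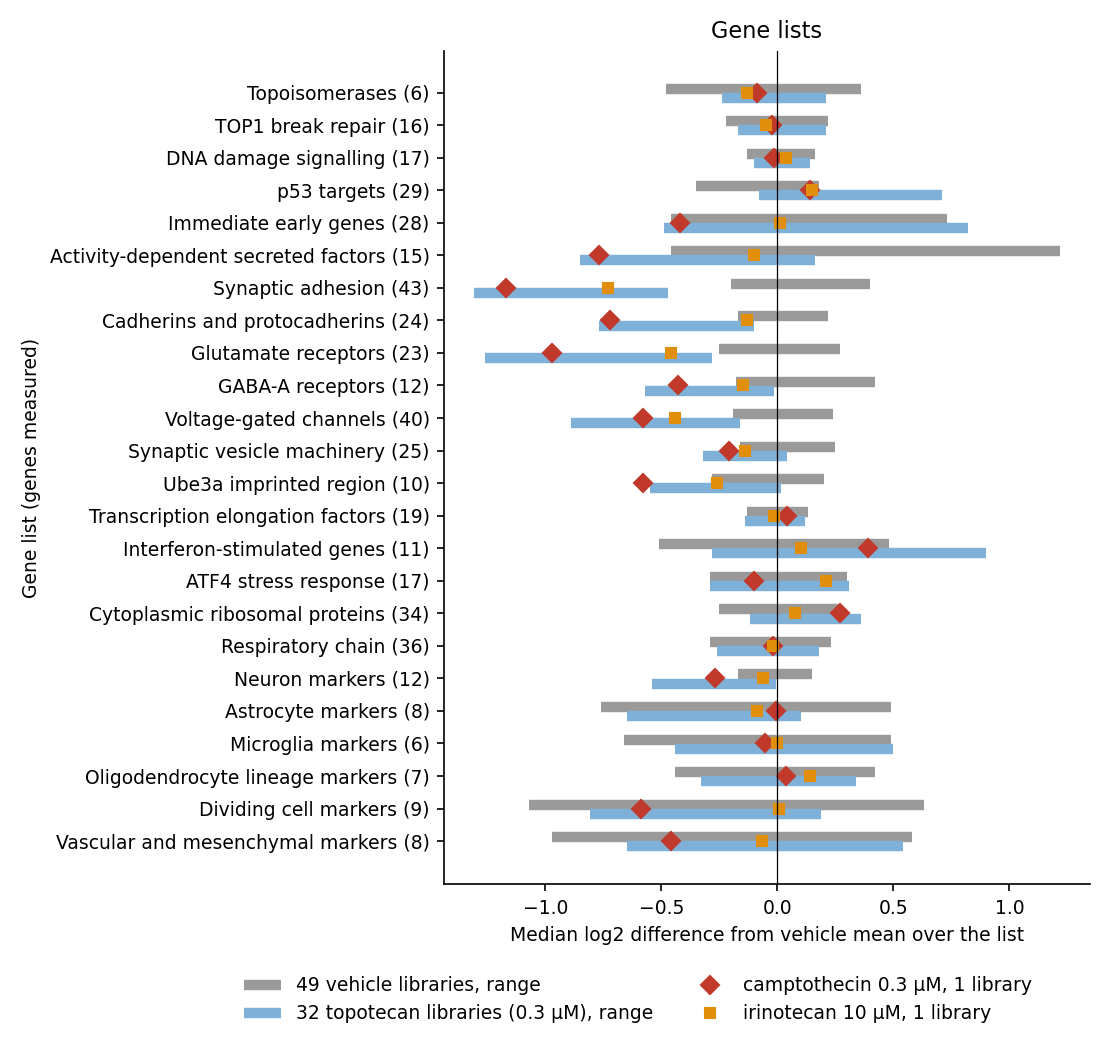
Median log2 difference from the vehicle mean over the measured genes of 24 lists (horizontal axis), with the number of genes in brackets, for camptothecin (diamonds) and irinotecan (squares). Grey and blue bars give the range of the list's median over the 49 vehicle and the 32 topotecan libraries. Camptothecin lies left of the grey bars in the lists of synaptic adhesion, cadherins, receptors, channels, vesicle machinery, secreted factors, the Ube3a region and neuron markers.

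Camptothecin and topotecan were the only pair of the family at a matched dose and time, 0.3 µM for 24 h, and 1 pair was therefore compared. Limma called 0 genes (0.0%), with a lowest adjusted p of 0.229. At an unadjusted p under 0.05 there were 442 genes, 3.32% of those tested, and the 0 calls held in each of the alternative fits. The 95% interval of the difference reached 0.50 to either side at the median gene, and for 9474 genes (71.2%) it lay wholly within 1 log2 unit of zero. The data thus bound the difference for most genes without showing that the 2 compounds act alike.

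At long genes the camptothecin library was at the low end of the topotecan libraries. Its median over genes above 100 kb, −0.38, lay among those of the topotecan libraries, which ran from −0.42 to −0.12 with a median of −0.24, and 2 of the 32 were lower. Over the 776 variably expressed genes above 100 kb it was −0.50, below all 32 topotecan libraries, the lowest of which was at −0.46 (exact permutation p = 0.0606, the smallest the design can give). Over all 1997 genes above 100 kb the camptothecin library differed from the mean of the topotecan libraries by −0.12. For these genes the two-sided exact permutation test gave p = 0.182, adjusted p = 0.182. The smallest p that 1 against 32 can give is 0.0606. Over genes longer than 800 kb camptothecin was at −1.67, with 6 topotecan libraries below it and topotecan values from −1.95 to −0.96. Of the genes over 100 kb, 6.31% were lower in camptothecin than in every topotecan library and 0.601% higher, beside 2.35% and 2.65% of all genes.

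Values of single genes showed where the 2 compounds lay apart and where they did not. At Nrxn3 camptothecin was at −2.25 and topotecan ran from −3.17 to −1.34, with a difference of −0.081 and an interval of −0.80 to 0.64. At Nav3 the difference was −0.16, with an interval of −0.54 to 0.23. At Ctnna2 camptothecin was lower than all 32 topotecan libraries, which ran from −3.58 to −1.21, with a difference of −1.51 and an interval of −2.42 to −0.60. That interval takes no account of the number of genes tested, and the adjusted p was 1.0.

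The genes with the lowest p in this comparison were named after their values were seen. Spag5 was higher in camptothecin by 2.84 (interval 1.58 to 4.09, adjusted p = 0.229), with topotecan libraries from −0.82 to 1.32. Gm9079, a predicted gene, differed by −2.57 (interval −3.73 to −1.40, adjusted p = 0.229). Cox7a2, a subunit of respiratory complex IV, differed by −1.04 (adjusted p = 0.768), and Igf1, a growth factor, by −0.83 (interval −1.28 to −0.38, adjusted p = 1.0). Camptothecin was outside all 32 topotecan libraries at each of these 4 genes.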

How the data were processed

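Polyadenylated RNA of cortical cultures was sequenced. The authors used TagDust as a read filter and TopHat for alignment to mm9, left out ribosomal RNA and computed RPKM on RefSeq models. They kept genes with RPKM above 0 in over 90% of samples and a length above 500 bp. The deposited values are log10 RPKM, quantile-normalized and centred on each gene's median, with batch effects taken out by the authors through a mixed model. They hold no levels or counts, so depth is unknown and no pseudocount applies.

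Here values were converted to log2, and groups came from sample titles. Limma 3.58.1 in R 4.3.3 was fitted to 13304 genes over 4 groups (49 vehicle, 32 topotecan, 1 camptothecin and 1 irinotecan library), with Benjamini-Hochberg adjustment at 0.05, and was tested on simulated data. P-values rest on the spread between libraries, which may be technical. The long-gene median was tested by enumerating which library was the drug's. Lengths came from GENCODE models of mm9, where 98.0% of genes had one. Irinotecan was tested against vehicle only, since its dose matches no other library of the family.

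Members, 24 gene lists and tests were chosen with earlier results of these data known. Genes were named by rule: the 10 largest called rises and falls outside every vehicle library, up to 6 genes a list with the largest difference in either drug, and Top1, Top2b, Tdp1, Cdkn1a, Mdm2, Fos, Ube3a, Nrxn3, Nlgn1 and Cntnap2, with genes over 200 kb that rose and any gene called between camptothecin and topotecan. Not every such gene is reported here, and further members are given where a count turns on them. Alternatives were a variance trend, robust variances, the comparator's spread alone, a threshold of 0.01, variably expressed genes (SD above 0.1 in log10), recentred libraries, calls outside the comparator's range and, for the long-gene median, other limits and references. Leaving out the opposed vehicle library, and deposited values without a vehicle reference, were added after seeing the data.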

Additional observations from a re-analysis of the deposited data

How the results depend on the processing

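With 1 library per drug, each result rests on the assumption that the library varied like the vehicle and topotecan libraries, and a change of that library alone cannot be told apart from the drug. With only the 5121 variably expressed genes tested, camptothecin lowered 200 genes and raised 41. This fit held 776 of the 1997 genes over 100 kb. Of the named genes it tested, 131 gave the same result in camptothecin and 1, Perp, lost its call. The part of the smaller set of genes in the lower counts was not tested. At a threshold of 0.01 the counts were 447 and 75, and irinotecan lowered 1. Irinotecan lowered 78 genes with the spread of the vehicle libraries alone and 7 without the opposed vehicle library. The first of these fits leaves out the topotecan libraries, whose spread enters the SE of the fit over 4 groups. Over genes longer than 200 kb the median SD per gene was 0.29 in topotecan and 0.25 in vehicle. At Ctnna2 the SD was 0.65 and 0.26, and irinotecan's SE was 0.45 over 4 groups and 0.26 with the vehicle spread. The cause of the change without the opposed library was not tested. The other fits gave counts within 1.5 times the reported ones, and no direction reversed. The median over genes longer than 100 kb kept its direction in all 6 alternatives. It was −0.75 for camptothecin and −0.35 for irinotecan over 200 kb. Over variably expressed genes alone camptothecin lay below all 32 topotecan libraries. Of 168 named genes, camptothecin's calls at Perp, C730002L08Rik, C130026L21Rik and Snurf and irinotecan's at Dlg2 were lost in 1 or 2 of the fits. With the spread of the vehicle libraries alone, camptothecin was called also at Cntnap2, Map2 and Gap43, and irinotecan at 15 more of these genes. No paired analysis was possible because each drug has 1 library and the screen's libraries carry no replicate numbers.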

Other observations

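The genes below were named after their values were seen. With the spread of the vehicle libraries alone, Galntl6, a glycosyltransferase gene of 1134 kb, was at −2.11 in irinotecan (limma, adjusted p = 0.000687) and at −2.06 in camptothecin. Nrg3, a neuregulin that binds Erbb4, was at −1.37 in irinotecan (adjusted p = 0.00159) and −2.78 in camptothecin, and Dlgap1, a scaffold protein of the postsynaptic density, at −0.95 (adjusted p = 0.00101) and −1.73. Irinotecan was called at none of these in the fit over 4 groups, where the adjusted p were 0.147, 0.635 and 0.172. The opposed vehicle library was the highest vehicle library at all 3, with 1.56, 0.79 and 0.55.

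Among the genes above every vehicle library in irinotecan, those with the lowest p were Trmt5, a methyltransferase of transfer RNA (1.12, adjusted p = 0.216), and Ecd, a cell cycle regulator (1.05, adjusted p = 0.216). The opposed vehicle library was the lowest of the vehicle libraries at both, at −0.95 and −1.03. Camptothecin was at −0.0096 and 0.32.

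As a description across genes, which are not independent and share the centring and batch correction of the table, the camptothecin library was ranked against all other libraries of the screen table by Spearman's rho. Over all 13304 genes rho with topotecan libraries ran from 0.25 to 0.556, with a median of 0.412, and 31 of the 32 nearest libraries were topotecan. Its rho with irinotecan, at another dose, was 0.31, and its highest rho with a chemical outside the drug family was 0.182, for fenamidone at 10 µM, an inhibitor of mitochondrial complex III. Over the 11042 genes of at most 100 kb the topotecan values ran from 0.137 to 0.468, and 31 of the 32 nearest were again topotecan.

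For irinotecan rho with topotecan libraries ran from 0.0947 to 0.325 over all genes, and 28 of the 32 nearest libraries were topotecan. With camptothecin rho was 0.31 over all genes and 0.601 over genes longer than 100 kb. The highest rho with a chemical outside the drug family over all genes was 0.234, for trifloxystrobin at 10 µM, also an inhibitor of complex III. Over genes of at most 100 kb the topotecan values ran from 0.0177 to 0.205 and fenamidone at 10 µM reached 0.204. The dose of irinotecan differs from that of topotecan, so these values are given side by side only.

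Some genes with a length of at most 100 kb in the annotation used fell in camptothecin, and these were named after their values were seen. Of the 110 genes of at most 100 kb called lower, Nkain2, a partner of the sodium pump, was at −2.36 in camptothecin and −1.01 in irinotecan, below every vehicle library in both. Its length in the annotation used was 72.61 kb. Dkk2, a Wnt antagonist, was at −2.25 and 0.42, and Slc38a3, a glutamine transporter, at −1.58 and −0.18.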
